A study of Mus musculus with 4 samples.

Results

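The 50 genes described here act in S phase, when DNA is copied (25 genes), or in G2 and mitosis, when the cell prepares to divide and does so (25 genes). They were chosen by gene symbol and not by measured level, though with earlier results of these data known. All 50 symbols were present among the 32285 genes of the deposited matrices, on 17 chromosomes. CD45+ immune cells were sorted from livers of female C57BL/6 mice and profiled by 10x Genomics 5' scRNA-seq, with 1 library in each of 4 groups. Young WT mice were about 8 weeks old and untreated. The WT, miR-146a-/- and miR-146a-/- Ccl5-/- (DKO) mice were 36 weeks old; all of them had received DEN, a chemical carcinogen of the liver, at 25 mg/kg on day 14, and a choline-deficient diet of 60% fat (CDHFD) after weaning on day 21. Treated and young WT mice thus differed in age as well as in treatment, and these cannot be told apart. How many mice contributed to each library was not given in the sources used. With 1 library per group no test between groups was possible, and the 95% intervals below (exact Poisson for summed UMIs, exact binomial for shares of cells, Newcombe for differences of shares) cover counting error only. Beside a share of 0 the limit given is 3 counts over the number of cells, which is somewhat below the upper end of the exact two-sided interval.

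The matrices held 10985 cells from young WT, 9120 from treated WT, 8393 from miR-146a-/- and 10623 from DKO mice. After limits on detected genes and on mitochondrial UMIs, 10283, 8329, 7824 and 9850 cells were kept, with 83882711, 84158257, 79464882 and 96747482 UMIs and a median of 6782, 8210, 7910 and 7558 UMIs per cell. Ptprc, which encodes CD45, stood at 1088, 980, 1035 and 1065 UMIs per 1000000 UMIs of the kept cells (CPM) in the same order. Ccl5, the chemokine gene deleted in DKO mice, stood at 6174 CPM in young WT, 12544 in treated WT, 12496 in miR-146a-/- and 65.4 in DKO cells, so the Ccl5 label fitted the counts. The gene table had no miR-146a entry, and that deletion could not be checked. The hepatocyte genes Alb and Apoa1 were at most 10.2 and 2.86 CPM in any library, and the red cell genes Hba-a1 and Hbb-bs stood at 28.9, 34.3, 66.1 and 44.7 CPM and at 172, 65.0, 210.1 and 142 CPM. Any pair of libraries had 109 to 150 cell barcodes in common, and 0 of these barcodes carried identical profiles.

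In an adult liver most resident cells rest outside the cell cycle, while lymphocytes and some dendritic cells can divide in the tissue. In G1 a cell loads the MCM helicase onto replication origins. On leaving G1 it fires the origins under cyclin E and cyclin A kinases, and it makes nucleotides and histones while the DNA is copied. Before division, cyclin B with CDK1, the Aurora and Polo kinases and the anaphase-promoting complex order the assembly and separation of the spindle, and many of these transcripts are low in resting cells.

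Summed over all 50 genes, the level was 1703 CPM in young WT (1694 to 1712), 2297 in treated WT (2287 to 2308), 1707 in miR-146a-/- (1698 to 1716) and 1792 in DKO cells (1784 to 1801). Treated WT was the high library, and young WT and miR-146a-/- lay close together. The S genes alone gave 1015, 1283, 1001 and 1024 CPM in that order, and the G2/M genes 688, 1015, 706 and 768. Per cell the signal was uneven. To put cells of different depth on the same footing, 2000 UMIs were drawn at random from each cell (thinning), which left out 1971 shallower cells of 36286, and a cell with at least 10 UMIs of the 50 genes was counted as cycling. By this count 343 cells cycled in young WT (3.57%, 3.21 to 3.96), 579 in treated WT (7.43%, 6.86 to 8.04), 305 in miR-146a-/- (4.09%, 3.65 to 4.56) and 424 in DKO (4.49%, 4.08 to 4.93). The threshold divides a continuous range and does not define a cell type: 605 of 34315 cells held 7 to 13 UMIs, with 87 cells at 9 and 70 at 10. Cells with 0 UMIs of the 50 genes after thinning made up 32.2%, 26.3%, 32.7% and 34.6% of the libraries. The 1651 cycling cells gave 67.7% of all UMIs of the 50 genes and 9.31% of all UMIs, and their median depth was 18622 UMIs beside 7573 in the other cells.

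**Figure D1:**
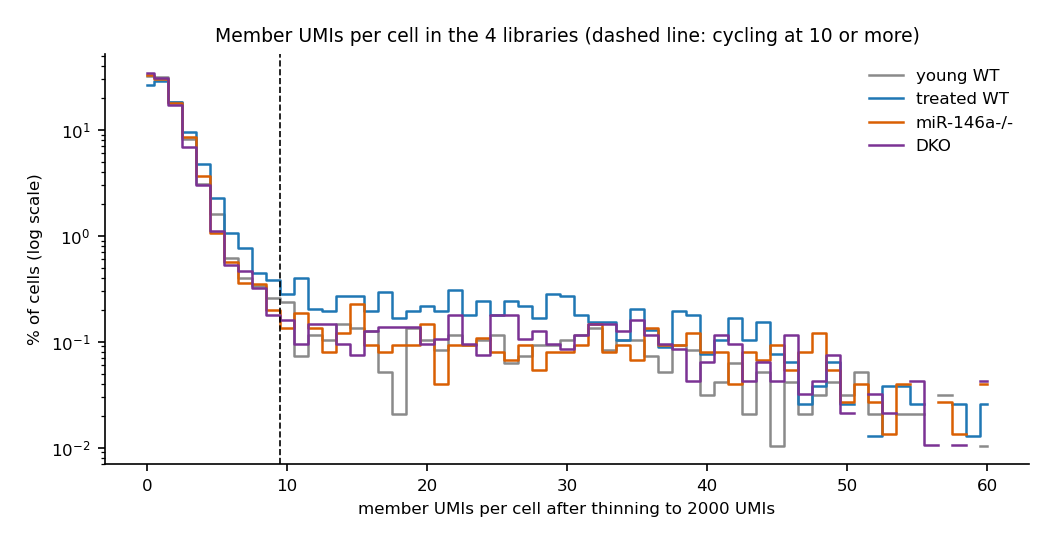
Percent of cells in each library (log axis) against UMIs of the 50 genes per cell after thinning to 2000 UMIs, with a line for each library, the threshold of 10 UMIs marked and cells of 60 or more UMIs in the last bin. Most cells held 0 to 3 UMIs, and a long low tail, highest in treated WT, ran past the threshold.

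Transcripts that rise together in a dividing cell often share promoter elements, so the promoters of the 50 genes were read for known cell cycle motifs. Promoter windows from RefSeq (GRCm38.p6, 250 bases before to 50 after the start) were found for 42 of the 50 genes, 22 S and 20 G2/M. Ccne2, Mcm4, Gins2, Ccna2, Aurkb, Stmn1, Tpx2 and Kif20a had no entry in the promoter set used. Hist1h1b and Hist1h2ae were matched under their current names H1f5 and H2ac8. The letters searched on both strands were CCAAT (the CCAAT box), TTTGAA or TTCGAA (the cell cycle genes homology region, CHR; TTCGAA reads alike on both strands) and TTTCCCGC, TTTGGCGC or TTTCGCGC (E2F). At least 1 window with CCAAT was found for 15 of 22 S genes and 18 of 20 G2/M genes, where 37.4% of all 32851 promoters and 41.1% of all 27025 genes had it. A CHR match was present for 5 of 22 S genes and 16 of 20 G2/M genes, beside 19.2% of promoters and 21.7% of genes. All 16 G2/M genes and all 5 S genes with a CHR match also held CCAAT, a pair found in 9.65% of all genes. An E2F match was present for 9 of 22 S genes and for 1 of 20 G2/M genes, Cdk1, beside 1.84% of promoters and 2.12% of genes. In the first promoter window of each gene, the CHR matches of G2/M genes centred at a median of -15.5 bases from the start. Their CCAAT matches centred at -81, while the E2F matches of S genes centred at -58.5. Further E2F matches lay in second windows, at -161.5 and 19.5 for Mcm7 and at -181.5 for Uhrf1. None of these letters was found for E2f1, Ccne1, Tyms, Tk1, Dut, Birc5 or Nusap1.

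**Figure D2:**
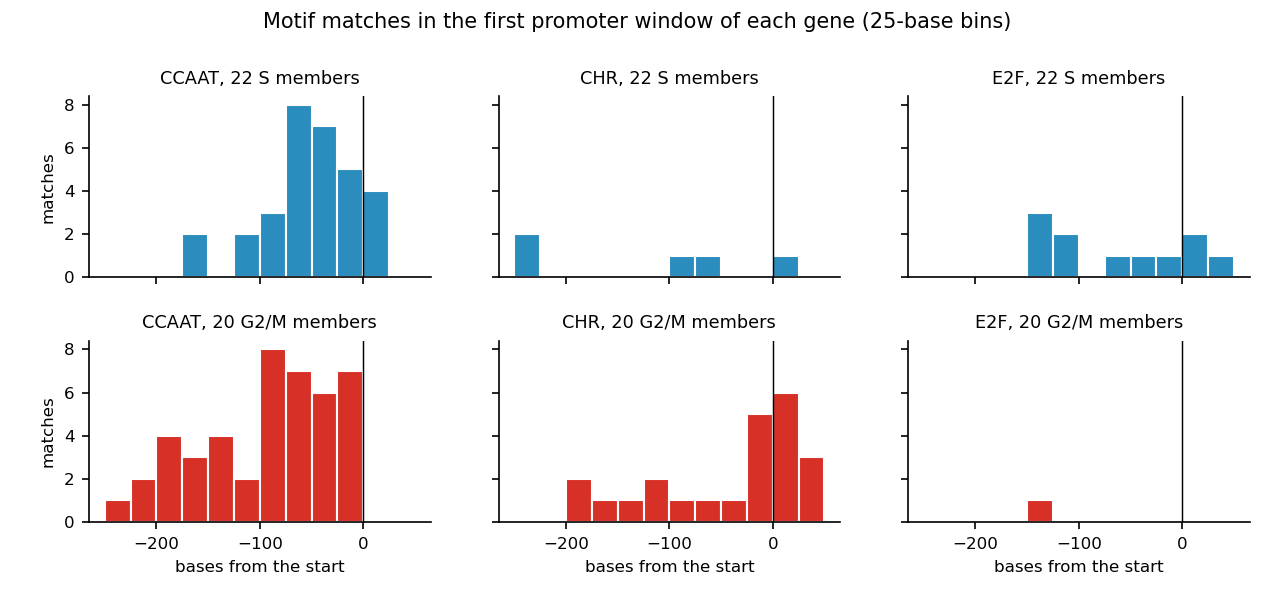
Counts of motif matches in 25-base bins against distance in bases from the gene start, for S genes (top) and G2/M genes (bottom), using the first promoter window of each gene. CHR matches of G2/M genes gather around the start, with CCAAT matches further out.

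The windows below show CCAAT with E2F matches in S genes (Mcm6, Pclaf) and CCAAT with CHR matches in G2/M genes (Ube2c, Ccnb2, Mki67). Cdk1 has the only window with all 3 kinds among the G2/M genes. An E2F match was present for 9 of 22 S genes, so the first pair does not stand for most S genes. Each is written 5' to 3' in the direction of transcription with motif letters of any of the 3 kinds in capitals. Mcm6, a helicase subunit, lies at chr1:128359656-128359955 on the minus strand with 2 CCAAT and 3 E2F matches, of which an overlapping pair shares the run TTTGGCGCGAAA. Pclaf, which encodes a PCNA-binding protein, lies at chr9:65890073-65890372 on the plus strand with 2 CCAAT matches and 1 E2F match. Cdk1, the mitotic kinase, lies at chr10:69352863-69353162 on the minus strand with 3 CCAAT, 2 CHR and 1 E2F match. Ube2c, the ubiquitin-conjugating enzyme of the anaphase-promoting complex, lies at chr2:164769679-164769978 on the plus strand with 6 CCAAT matches, a pair of them overlapping as CCAATTGG, and 1 CHR match. Ccnb2, which encodes cyclin B2, lies at chr9:70421505-70421804 and Mki67, the gene of the proliferation antigen Ki-67, at chr7:135716330-135716629, both on the minus strand with 3 CCAAT and 2 CHR matches. A match describes the letters in the window and does not show that a factor binds there.
Mcm6: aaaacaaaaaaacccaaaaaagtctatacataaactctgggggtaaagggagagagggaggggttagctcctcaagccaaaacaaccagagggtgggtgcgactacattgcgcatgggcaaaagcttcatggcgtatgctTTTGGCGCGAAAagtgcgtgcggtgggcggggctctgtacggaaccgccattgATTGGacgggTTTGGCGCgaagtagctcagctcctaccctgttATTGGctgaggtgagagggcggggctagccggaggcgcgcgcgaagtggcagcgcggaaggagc
Pclaf: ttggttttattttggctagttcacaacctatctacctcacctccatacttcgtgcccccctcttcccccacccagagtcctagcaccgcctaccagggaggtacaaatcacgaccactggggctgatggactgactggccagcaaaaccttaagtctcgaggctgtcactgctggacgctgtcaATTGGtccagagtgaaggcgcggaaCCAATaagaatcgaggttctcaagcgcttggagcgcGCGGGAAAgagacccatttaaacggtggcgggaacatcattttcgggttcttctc
Cdk1: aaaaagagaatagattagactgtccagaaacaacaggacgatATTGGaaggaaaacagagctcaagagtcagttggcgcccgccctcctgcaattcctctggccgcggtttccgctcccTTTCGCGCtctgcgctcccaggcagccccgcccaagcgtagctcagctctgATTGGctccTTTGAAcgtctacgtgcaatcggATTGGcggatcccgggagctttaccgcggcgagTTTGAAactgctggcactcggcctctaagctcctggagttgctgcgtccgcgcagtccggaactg
Ube2c: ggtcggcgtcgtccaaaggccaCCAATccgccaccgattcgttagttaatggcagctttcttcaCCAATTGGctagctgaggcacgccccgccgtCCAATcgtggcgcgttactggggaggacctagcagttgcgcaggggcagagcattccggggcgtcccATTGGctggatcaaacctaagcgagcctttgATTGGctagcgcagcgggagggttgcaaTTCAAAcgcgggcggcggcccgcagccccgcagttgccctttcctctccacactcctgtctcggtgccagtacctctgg
Ccnb2: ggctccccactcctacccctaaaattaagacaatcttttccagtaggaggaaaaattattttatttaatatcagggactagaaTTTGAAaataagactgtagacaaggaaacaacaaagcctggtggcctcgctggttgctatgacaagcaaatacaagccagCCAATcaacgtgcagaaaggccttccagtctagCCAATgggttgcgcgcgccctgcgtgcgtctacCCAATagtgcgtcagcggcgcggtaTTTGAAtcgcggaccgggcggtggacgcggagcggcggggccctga
Mki67: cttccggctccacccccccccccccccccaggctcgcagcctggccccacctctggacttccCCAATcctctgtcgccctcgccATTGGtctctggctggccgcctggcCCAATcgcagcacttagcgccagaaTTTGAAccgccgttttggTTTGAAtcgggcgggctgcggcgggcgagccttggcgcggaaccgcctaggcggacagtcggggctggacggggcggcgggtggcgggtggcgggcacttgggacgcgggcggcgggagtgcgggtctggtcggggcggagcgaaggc

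How closely each gene followed the cycling state was measured with the gene left out of its own call, so that cells were sorted by the other 49 genes. All 50 genes had a higher CPM in cycling than in other cells, with a median ratio of 42.0, and 38 of the 50 exceeded 10-fold. Over the 14923 genes with at least 100 UMIs the median ratio was 0.925, and 7.25% were at least 2-fold higher in cycling cells, as were all 50 genes. No share at 10-fold was computed over all genes. The G2/M genes had a median ratio of 62.7 and all 25 exceeded 10-fold, while the S genes had a median of 10.0 and 13 of 25 exceeded it. A median of 86.5% of the UMIs of a G2/M gene came from cycling cells, beside 50.7% for an S gene. The largest ratios belonged to Ccna2 (cyclin A2), at 301 CPM in cycling and 1.26 CPM in other cells (239-fold), Hmmr (a spindle-associated receptor), at 108 and 0.594 CPM (181-fold), Cenpf (a kinetochore protein), at 230 and 1.61 CPM (143-fold), Bub1 (a checkpoint kinase), at 66.2 and 0.472 CPM (141-fold), and Birc5 (survivin), at 487 and 3.53 CPM (138-fold). The smallest belonged to Slbp, which binds the stem-loop of histone mRNA, at 328 and 92.3 CPM (3.55-fold), and to Mcm4 (4.11-fold), Mcm6 (4.18-fold), Pcna (4.86-fold) and Mcm2 (5.90-fold). Most UMIs of these last genes therefore lay in cells under the threshold, and 26.4% of Slbp UMIs came from cycling cells. CPM is not scaled to transcript length, so levels are compared within a gene and not between genes.

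Comparison of treated with young WT asks how age and the DEN-CDHFD treatment together relate to dividing immune cells. The summed level was 1.35-fold higher in treated WT (log2 ratio 0.43, 0.42 to 0.44), and the share of cycling cells was 3.87 points higher (3.18 to 4.57). All 50 genes were higher in treated WT, with a median log2 ratio of 0.51 beside -0.04 over all genes tested, and values from 0.05 to 0.75. At a 1.5-fold threshold 12 of the 50 rose, 4 S and 8 G2/M genes, beside 8.85% of the 13678 genes with at least 100 UMIs, and 0 fell, beside 7.1%. Without the upper limit on detected genes 49 of the 50 were higher and 3 rose at 1.5-fold (9.01% of all genes tested did), and without cells in 2 or more lineage gates 33 rose (8.59% of all genes tested did), the latter a setting chosen after seeing the data. Within cycling cells the level was 0.09 lower on the log2 scale in treated than in young WT (-0.09, -0.10 to -0.07), and among cells under the threshold it was 0.24 higher (0.22 to 0.25).

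Comparison of miR-146a-/- with WT, both treated, asks how the loss of miR-146a, a microRNA that restrains NF-kB signalling, relates to the same genes. The summed level was 0.743 times that of WT (log2 ratio -0.43, -0.44 to -0.42), and the share of cycling cells differed by -3.35 points (-4.09 to -2.61). All 50 genes were lower, with a median of -0.47 beside -0.01 over all genes tested and values from -0.76 to -0.22. At 1.5-fold 9 of the 50 fell, 2 S and 7 G2/M genes, beside 5.95% of 13641 genes, and 0 rose, beside 6.72%; without cells in 2 or more lineage gates 19 fell, beside 6.16% of all genes tested. Within cycling cells the level was 0.14 higher in miR-146a-/- (0.13 to 0.16), and among other cells the log2 ratio was -0.33 (-0.35 to -0.31). Both this comparison and the one with young WT use the treated WT library, so their opposite directions are not independent.

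Comparison of DKO with miR-146a-/- asks what the added loss of Ccl5 relates to. The summed level differed by 0.07 on the log2 scale (0.06 to 0.08), and the share of cycling cells by 0.40 points with an interval that spans 0 (-0.21 to 1.01). None of the 50 genes passed 1.5-fold, beside 3.09% of 13721 genes higher and 2.98% lower. By sign 34 were higher and 16 lower, with 24 of 25 G2/M genes and 10 of 25 S genes higher, beside 40.1% of all genes tested, so the S genes were at the share of all genes; the G2/M exception was Nusap1 at -0.02. The sign of the small summed difference depended on the processing: it was -0.05 without the upper limit on detected genes, -0.05 as a mean over cells of each cell's share of UMIs, and -0.10 among cells under the threshold. Within cycling cells it was -0.015 (-0.028 to -0.0030), so the level was lower in DKO within both sets of cells when pooled over classes. By lineage, T cells under the threshold stood at 835 CPM in miR-146a-/- and 843 in DKO, and conventional dendritic cells at 696 and 709. Monocytes, macrophages and related myeloid cells stood at 338 and 344, NK cells and ILC1 at 733 and 732, and B and plasma cells at 461 and 438. T cells made up 49.7% of miR-146a-/- and 37.9% of DKO cells. Without the upper limit 13 of the 50 were higher and 37 lower. TMM scaling moves every gene of a comparison by the same amount, so the signs of values this near 0 depend on the scaling as well. With cells thinned to 1000 UMIs the share differed by -0.66 points (-1.31 to -0.01).

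The share differences of the other comparisons kept their direction under every alternative tried but varied in size by over 1.5 times. With a threshold 2 times higher they were 2.55 points for treated over young WT and -2.13 for miR-146a-/- over WT. With a cell counted when it held a thinned Mki67 or Top2a UMI they were 5.87 and -5.09, and with cells thinned to 1000 UMIs the second was -2.15.

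Genes that start S phase and license origins numbered 13. Among these E2f1 encodes an activating E2F factor, Ccne1 and Ccne2 the E cyclins, Cdc6 a helicase loader, Mcm2 to Mcm7 the helicase ring, Cdc45 and Gins2 parts of the active helicase, and Clspn the checkpoint adaptor claspin. Ccne1 stood at 5.67 CPM in young WT, 8.19 in treated WT, 6.96 in miR-146a-/- and 6.12 in DKO cells, and Ccne2 at 3.68, 4.57, 3.17 and 3.24. Both cyclin E genes were highest in treated WT. In the same order Mcm2 stood at 33.6, 34.7, 28.3 and 24.1 CPM, Mcm3 at 50.4, 63.9, 45.9 and 45.7, and Mcm4 at 65.7, 73.7, 57.7 and 53.3. Mcm5 stood at 41.1, 51.3, 38.1 and 38.0, Mcm6 at 93.8, 121.6, 90.9 and 85.1, and Mcm7 at 37.5, 44.8, 36.8 and 36.3. All 6 helicase genes had their highest value in treated WT, Mcm2, Mcm4 and Mcm6 were lowest in DKO, and none of the 6 passed 1.5-fold in a comparison. DKO and miR-146a-/- differed by less than counting error for Mcm3, Mcm5 and Mcm7. Mcm2 had the smallest log2 ratio of all 50 genes for treated over young WT (0.05, -0.03 to 0.12) and the lowest for DKO over miR-146a-/- (-0.23, -0.31 to -0.14). Of the 13 genes 1 rose at 1.5-fold in treated over young WT, near the 8.85% of all genes tested. This was Clspn, at 11.4, 18.4, 12.2 and 13.4 CPM (log2 ratio 0.69, 0.58 to 0.81). In miR-146a-/- over WT 2 of the 13 fell, beside 5.95% of all genes tested, Clspn (-0.60, -0.71 to -0.48) and Gins2 (-0.59).

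Genes of the replication fork, nucleotide supply and S-phase histones numbered 12. Pcna encodes the sliding clamp, Rrm1 and Rrm2 ribonucleotide reductase, Tyms, Tk1 and Dut enzymes of thymidine nucleotides, Uhrf1 and Hells chromatin factors that maintain DNA methylation, and Hist1h1b and Hist1h2ae histones. Pcna stood at 65.7, 82.8, 66.6 and 69.1 CPM (young WT, treated WT, miR-146a-/-, DKO), and Slbp at 119.3, 124.8, 106.6 and 104.8. Pcna was high in treated WT alone, whereas the Slbp log2 ratio of treated over young WT was 0.07 (0.03 to 0.11). Hist1h2ae stood at 115.6, 124.1, 105.0 and 131.8 CPM. It was the only S gene of this role highest in DKO, with a log2 ratio of 0.33 over miR-146a-/- (0.29 to 0.37), the largest of the 50 in that comparison. Replication-dependent histone mRNAs mostly lack a poly(A) tail and come from families of near-identical genes, and the assay primes on poly(A), so the counts of Hist1h1b and Hist1h2ae cover an unknown part of these transcripts. Tk1 rose from 18.0 CPM in young to 28.1 in treated WT (log2 ratio 0.64, 0.55 to 0.74) and stood at 24.0 in miR-146a-/- and 23.4 in DKO. Tyms and Hist1h1b also rose at 1.5-fold (0.62 and 0.64), so that 3 of the 12 did, beside 8.85% of all genes tested. In miR-146a-/- over WT 0 of the 12 fell, near the 5.95% of all genes tested.

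Mitotic cyclins, kinases and the degradation machinery numbered 11. Ccna2 stood at 24.7 CPM in young WT, 35.9 in treated WT, 25.9 in miR-146a-/- and 28.9 in DKO cells. Ccnb1, which encodes cyclin B1, stood at 10.5, 14.9, 9.50 and 10.9 CPM, and Cdk1 at 18.7, 31.5, 21.8 and 24.4. All of these were highest in treated WT, and of them only Ccnb1 had a lower value in miR-146a-/- than in young WT. Cdk1 had the largest log2 ratio of the 50 genes in treated over young WT (0.75, 0.66 to 0.84), and the kinase genes Aurka and Bub1b also rose (0.63 and 0.61). In miR-146a-/- over WT, Ccnb1 fell (-0.65, -0.79 to -0.52), as did Cdc20, the activator of the anaphase-promoting complex (-0.63, -0.74 to -0.53; 15.3, 22.2, 14.3 and 15.5 CPM over the libraries). Bub1 stood at 6.01, 7.88, 5.80 and 6.501 CPM. In DKO over miR-146a-/- all 11 were higher, from 0.05 to 0.26, beside 40.1% of all genes tested. Of the 11, 0 rose at 1.5-fold, beside 3.09% of all genes tested. As described above, most of the 50 genes were lower without the upper limit on detected genes.

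Spindle, kinetochore and chromatin genes numbered 14. Mki67 stood at 67.7 CPM in young WT, 104.6 in treated WT, 68.5 in miR-146a-/- and 73.9 in DKO cells, and Top2a, which encodes the topoisomerase that untangles sister chromatids, at 66.9, 108.6, 73.0 and 74.8. Both were high in treated WT, with the other libraries close together. Stmn1, which encodes a microtubule-destabilising protein, stood at 114.6, 163.0, 116.7 and 131.0 CPM, and Birc5 at 39.5, 58.7, 44.2 and 48.6. Top2a rose in treated over young WT (log2 ratio 0.70, 0.65 to 0.75), as did Nusap1, a spindle microtubule binder (0.69, 0.60 to 0.78), Mki67 (0.63), Tpx2 (0.64) and Kif11 (0.59). The genes that fell furthest in miR-146a-/- over WT were Hmmr (11.2, 14.0, 8.27 and 8.60 CPM; -0.76, -0.90 to -0.62) and Cenpf (21.2, 30.1, 18.0 and 21.7 CPM; -0.74, -0.84 to -0.65). Cenpe, a kinetochore motor (15.1, 22.1, 14.5 and 15.2 CPM), and Mki67 also fell (both -0.61), as did Tpx2 (-0.60). Hmmr and Cenpf were lower in miR-146a-/- than in young WT as well.

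**Figure D3:**
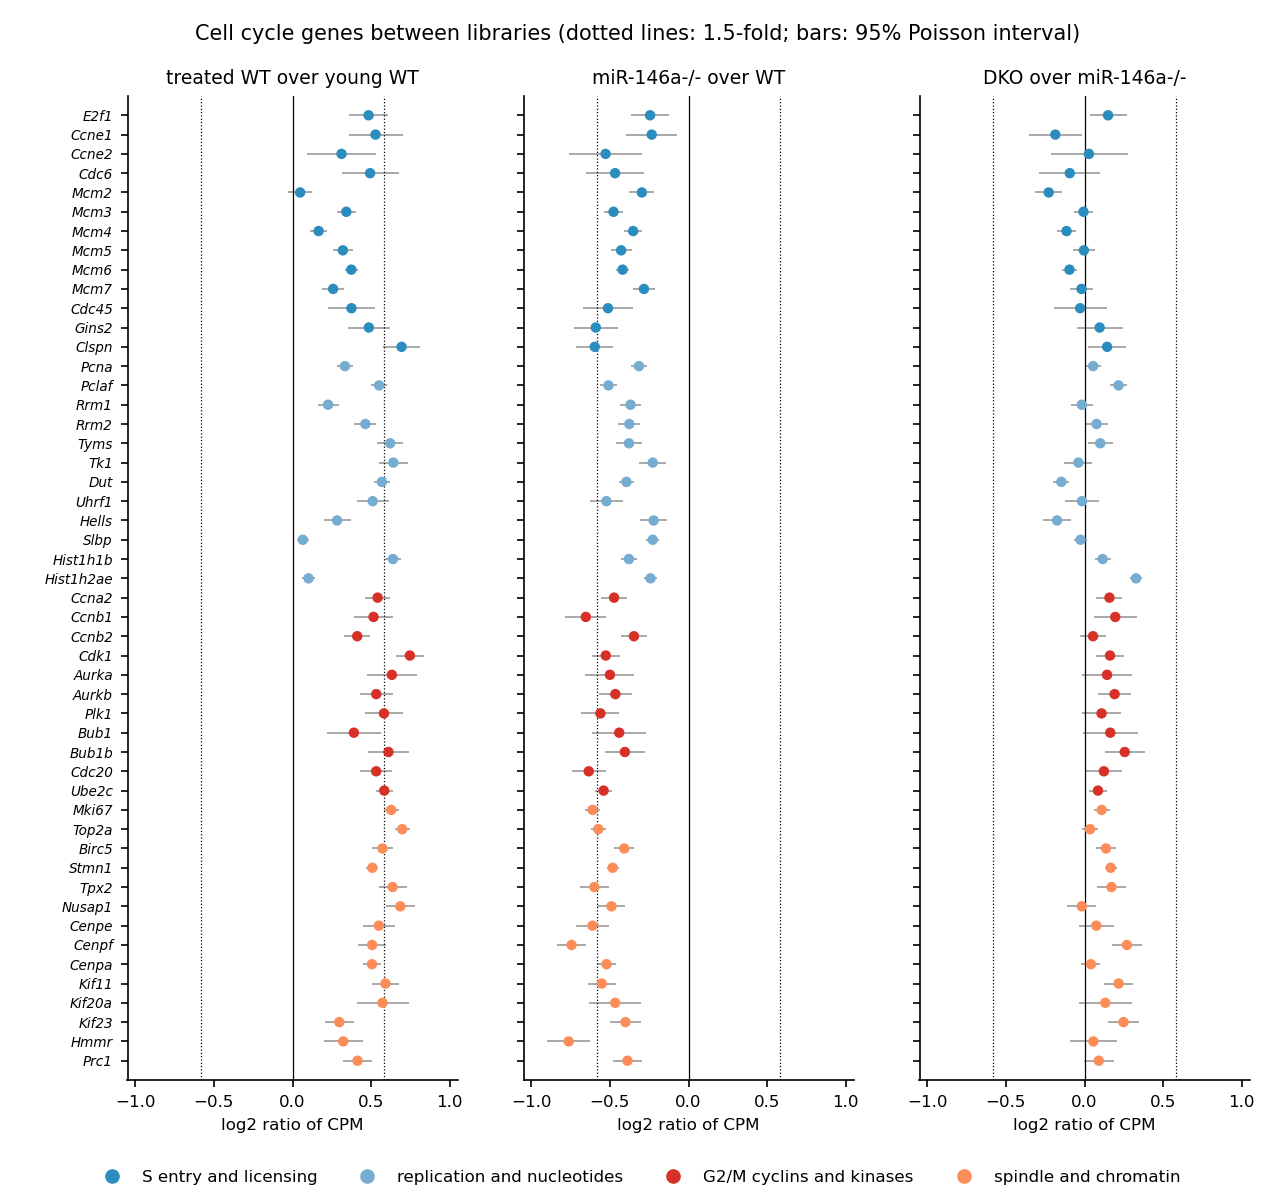
Log2 ratio of each of the 50 genes in the 3 comparisons, ordered by role, with 95% counting intervals and lines at 1.5-fold. All points lie right of 0 for treated over young WT and left of 0 for miR-146a-/- over WT, and points of both signs lie near 0 for DKO over miR-146a-/-.

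Within the 1651 cycling cells the S and G2/M sums were set against each other, again with each gene left out of its own call. The S sum led in 833 cells, the G2/M sum in 784, and 34 were tied; S genes led in 46.6% of cycling cells of young WT (41.3 to 52.1), 51.1% of treated WT (47.0 to 55.3), 50.8% of miR-146a-/- (45.1 to 56.6) and 52.4% of DKO (47.5 to 57.2). These intervals overlap, and 69.6% of the cells took 20% to 80% of their UMIs from S genes. Whether these cells form a gradient or separate states was not tested. Of 25 S genes 23 were higher where other S genes led, and of 25 G2/M genes 24 were higher where G2/M genes led. At the S end stood E2f1, at 107 CPM in S-led and 15.5 in G2/M-led cells (log2 ratio 2.80), Cdc6 (2.56) and Mcm2 (2.25). At the other end stood Cdc20, at 37.6 and 280 CPM (-2.90), Ube2c, at 164 and 1164 CPM (-2.83), and Ccnb1 (-2.66). The exceptions were Stmn1, listed with G2/M and slightly higher in S-led cells (0.29), and the histone genes Hist1h1b (-0.17) and Hist1h2ae (-0.57), which were higher in G2/M-led cells. These genes were singled out after their values were seen.

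**Figure D4:**
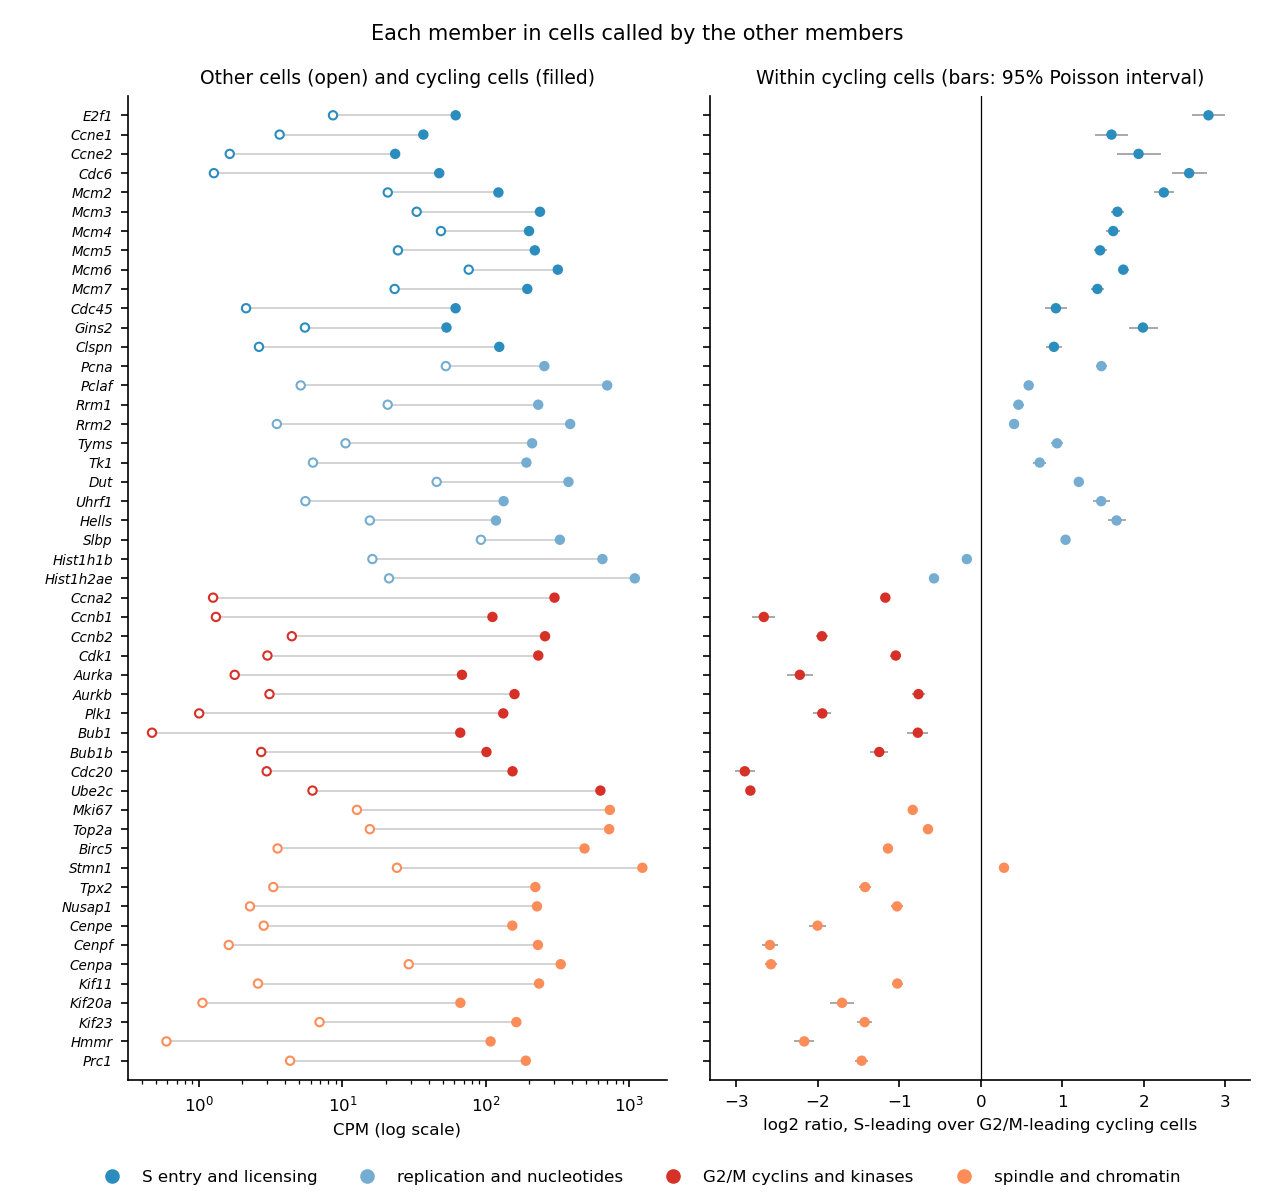
Left, CPM (log axis) of each of the 50 genes in other cells (open) and in cycling cells (filled), called from the remaining genes; right, log2 ratio of S-led over G2/M-led cycling cells with 95% counting intervals. All filled points lie right of the open ones, S genes lie mostly right of 0 and G2/M genes mostly left of it.

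Since a cell counts as cycling by the sum of these genes, the sum in cycling cells is in part set by the threshold. In cycling T cells the 50 genes summed to 14920 CPM, in NK cells and ILC1 to 14845, and in B and plasma cells to 12335. In conventional dendritic cells they summed to 11504 CPM. A mixed myeloid group of monocytes, macrophages, granulocyte precursors and myeloid cells of no narrower class gave 12000 CPM. Of its 88 cycling cells, 33 were myeloid cells of no narrower class. These 33 held 230 CPM of Flt3 and 165 of Lyz2, beside 249 and 243 in cycling dendritic cells of the cDC1 class. The S to G2/M ratio ran from 0.96 in cycling T cells to 0.62 in the mixed myeloid group. For an individual gene the highest of these 5 lineages exceeded the lowest by a median of 1.63-fold, from 1.09 (Bub1) to 3.33 (Mcm4), and 34 of the 50 stayed under 2-fold. Among cells under the threshold the same sum was lower, for example 725 CPM in young WT T cells, 994 in treated WT, 835 in miR-146a-/- and 843 in DKO. S genes gave 81.4% to 83.8% of this sum in T cells. In the mixed myeloid group, again with the myeloid cells of no narrower class, it was 465, 472, 338 and 344 CPM. There Mcm6 was 149.7 CPM in CD8 T cells with a drawn Pdcd1 (PD-1) UMI and 10.3 in patrolling monocytes, and Slbp 143.1 in NK cells and 27.6 in plasma cells. E2f1 had its highest non-cycling levels in plasmacytoid dendritic cells (26.5 CPM) and C1q macrophages (19.7) and its lowest in ILC1 (3.41). The genes and classes of the last sentences were singled out after their values were seen.

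Free RNA can add UMIs to cells that do not express a gene. The share of cells with a thinned Mki67 or Top2a UMI was therefore read beside neutrophils and patrolling monocytes. Over all deep cells it was 6.61% in young WT, 12.5% in treated WT, 7.39% in miR-146a-/- and 7.96% in DKO. Of neutrophils, a non-dividing cell, 0 of 17, 19, 13 and 23 had such a UMI, which allows shares of up to 17.6%, 15.8%, 23.1% and 13.04%, at median depths of 3652, 4215, 9522 and 7649 UMIs. Of patrolling monocytes, 0 of 73 (up to 4.11%), 2.01%, 1.71% and 2.28% had one, at median depths of 7716, 12551, 10002 and 9068 UMIs. This class, as gated, held 1, 4 and 10 cells counted as cycling in treated WT, miR-146a-/- and DKO, so its share need not come from free RNA alone. NK cells, at median depths of 6644, 8490.5, 9763 and 8670 UMIs, had 6.16%, 13.9%, 9.48% and 10.3%, and B cells, at 5655, 6795, 7042 and 6493 UMIs, had 2.85%, 6.41%, 2.64% and 3.47%. NK cells lay above the monocytes, or in young WT above the limit given for them, while the B cells of miR-146a-/- and DKO were near the monocytes and those of young WT were under that limit.

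Cell classes were set by UMIs of lineage markers that include none of the 50 genes, and a class is described in a library where it held at least 50 cells. Among lymphocytes the cycling share of NK cells was 2.59% in young WT, 11.0% in treated WT, 6.40% in miR-146a-/- and 7.54% in DKO, with 1595, 3332, 2554 and 3201 CPM of the 50 genes. T-cell subsets were set on the 2000 drawn UMIs, so a cell with none of a marker drawn may still express it. CD8 T cells with no drawn Pdcd1 UMI had 4.43%, 11.0%, 5.40% and 6.24%, and CD8 T cells with a drawn one had 4.23%, 7.001%, 2.75% and 5.37%; over all their UMIs, the cells outside the cycling count held 88.2 and 739 CPM of Pdcd1. In each of these classes the share was highest in treated WT, although for CD8 T cells with a drawn Pdcd1 UMI the difference from young WT spans 0 (-2.13 to 5.67 points) and the level was highest in DKO (1514, 2835, 1806 and 2960 CPM). CD8 T cells with a drawn Pdcd1 UMI gave the only share difference between DKO and miR-146a-/- whose interval left out 0 (2.62 points, 0.85 to 4.51), among 19 classes. ILC1 cycled at 1.67%, 4.72%, 1.74% and 2.09%, and B cells at 1.18%, 3.43%, 1.10% and 1.06%. T cells of no narrower class, 5464 in all, cycled at 3.53%, 8.70%, 7.56% and 6.66%, with 1864, 3053, 3021 and 2939 CPM. Between miR-146a-/- and WT their level (log2 ratio -0.015, -0.040 to 0.0093) and share (-1.13 points, -3.58 to 1.35) had intervals that span 0. CD4 T cells with no drawn Foxp3 UMI, which still held 71.7 CPM of Foxp3 in cycling and 32.1 in other cells, ran the other way, at 4.93% and 2734 CPM in young WT but 3.27% and 1490 CPM in treated WT (log2 ratio of the level -0.88, -0.95 to -0.80; the share difference spans 0, -4.50 to 2.76 points, with 548 and 153 cells).

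Dendritic and monocytic classes covered the widest range. Conventional dendritic cells had the highest cycling shares of the classes with 50 cells in every library: cDC1 14.6%, 25.3%, 11.2% and 14.4%, and cDC2 14.8%, 24.1%, 12.1% and 13.1% (young WT, treated WT, miR-146a-/-, DKO). In cDC1 the level was 2654, 4087, 2209 and 2581 CPM, and a further 28, 20, 13 and 21 cycling cells of this class lay above the limit on detected genes. Plasmacytoid dendritic cells were low throughout, with 0 of 145 cycling cells in young WT (up to 2.07%), 0 of 88 in treated WT (up to 3.41%), 0.685% in miR-146a-/- and 0.746% in DKO. Classical monocytes cycled at 0.833%, 4.68% and 4.87% in the 3 treated libraries and patrolling monocytes at 0.671%, 0.620% and 0.911%, with 0 of 73 cells in young WT. The 15 cycling cells gated as patrolling monocytes held 29.8 CPM of Ace and 81.3 of Flt3. Other cells of that class held 474 and 3.10, so the cells behind this share differed in markers from the rest. The level of classical monocytes was 645 CPM in treated WT and 1315 in miR-146a-/- (log2 ratio 1.03, 0.93 to 1.13), against the direction of most classes. These levels rest on few cycling cells, 1 of 120 and 8 of 171, and the share difference spans 0 (-0.54 to 8.18 points).

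Over 14 classes compared, cells in several lineage gates or in none included, the level in treated WT was above young WT by more than counting error in 11 and below it in 1, and the share of cycling cells was higher in 7 and had an interval spanning 0 in 7. Over 17 classes, miR-146a-/- was below WT in 10 and above in 5, and its share was lower in 8 and spanned 0 in 9. With every gate threshold 2 times higher, CD4 T cells with no drawn Foxp3 UMI held too few cells to compare, so 0 classes were lower in treated than in young WT, and 2 were higher in miR-146a-/- than in WT. DKO was above miR-146a-/- in 10 of 19 classes and below in 4. When each library was given the same pooled mix of classes, the cycling shares were 3.44% in young WT, 7.31% in treated WT, 4.31% in miR-146a-/- and 4.76% in DKO, close to the shares as measured.

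**Figure D5:**
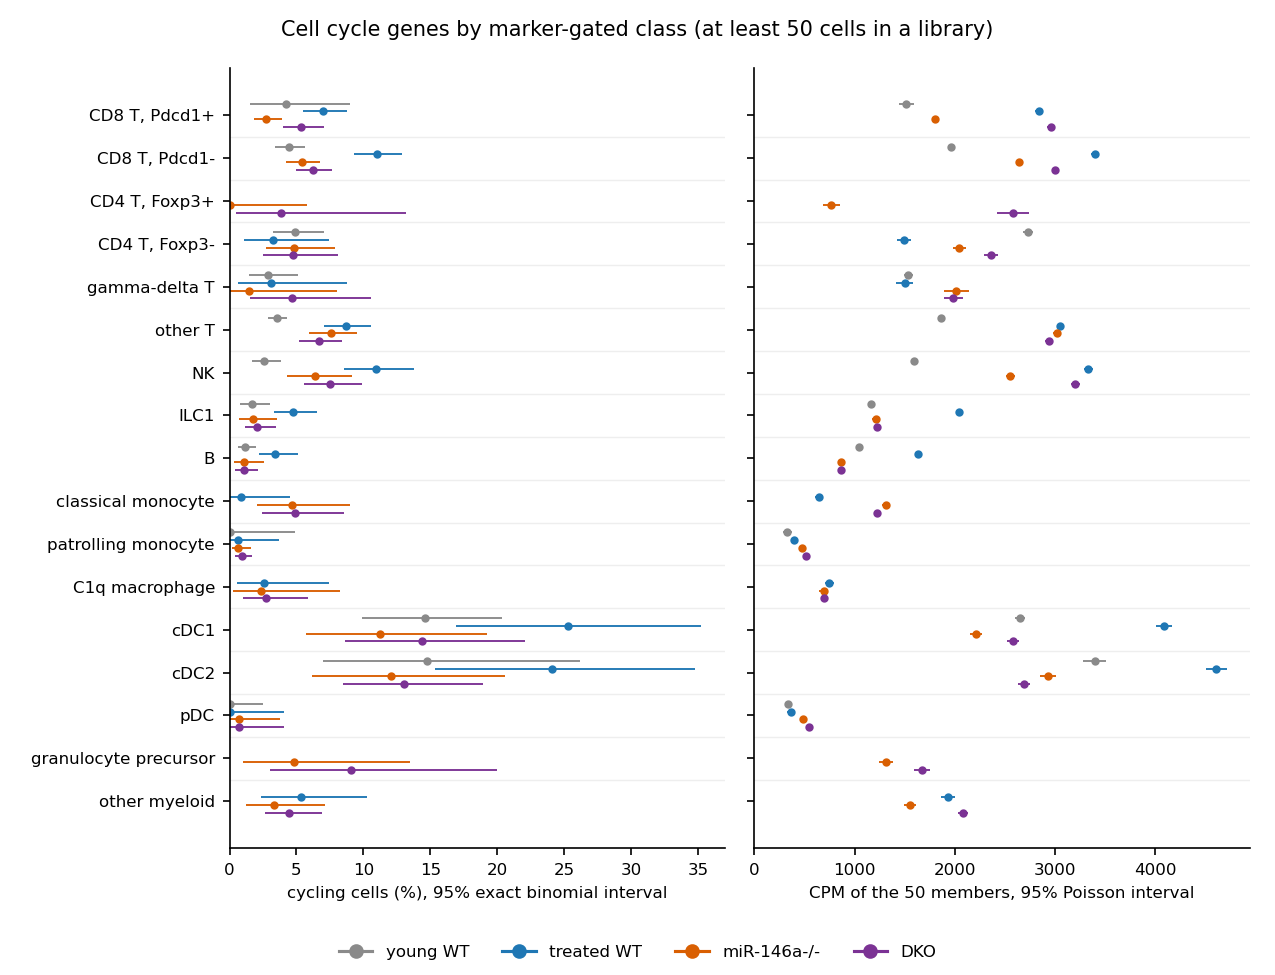
Percent of cycling cells (left) and level of the 50 genes in CPM (right) in each marker-gated class with at least 50 cells in a library, with points coloured by library and 95% counting intervals. In the left panel, among classes with 50 cells in every library, conventional dendritic cells lie highest and patrolling monocytes and plasmacytoid dendritic cells lowest. The cycling share of NK and CD8 T cells is highest in treated WT.

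The genes whose level most resembled the sum of the 50 were sought over 62 units, each a class in a library with at least 50 cells, among 10688 genes. The median Pearson r of log2 (CPM + 1) was 0.87 for the 50 genes and 0.09 for all genes, and 32 of the 50 were among the 100 highest; the units share libraries, and the 50 genes are themselves part of the sum. Outside the 50 the highest were Kif22 (r = 0.96), a chromosome-arm kinesin, Fbxo5 (0.95), an inhibitor of the anaphase-promoting complex, Asf1b (0.95), a histone chaperone, Smc2 (0.95), a condensin subunit, and Dlgap5 (0.94), a spindle protein. The condensin genes Ncapg (0.94), Ncapd2 (0.93) and Ncaph (0.92), the histone gene H2afx (0.93) and the cohesion gene Cdca5 (0.92) followed. E2f1 had the lowest value of the 50, at 0.09.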

How the data were processed

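CD45+ liver cells of 4 libraries were measured by 10x Genomics 5' chemistry, and the deposited matrices hold raw UMI counts per gene and cell that the authors made with Cell Ranger on the mm10 (GRCm38) reference. The file headers name version 7.0.1 and the paper an earlier one; these differ in whether intronic reads are counted by default, and the sources do not state which was done. Each matrix column is a cell. The 50 genes and all gene lists were chosen with earlier results of these data known. Cells with 600 to 6000 detected genes and a mitochondrial share of 5% or less were used. UMIs were summed per library or class and given per 1000000 UMIs (CPM); log2 ratios used a prior of 0.5 UMIs, and a gene was called at 1.5-fold with at least 100 UMIs over both libraries. For shares of cells, 2000 UMIs were drawn per cell, without the cells that held fewer. Classes came from summed UMIs of lineage markers, and T-cell subsets from marker UMIs in the draw. No doublet caller was run; cells in 2 or more lineage gates were set apart as a class of their own.

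Named with values were the 5 genes with the largest and the 5 with the smallest ratio of cycling to other cells, the 5 with the highest CPM, those past 1.5-fold (at most 5 each way by size), Mki67, Top2a, Pcna, Mcm2 to Mcm7, Ccna2, Ccnb1, Ccne1, Ccne2 and Cdk1, the 10 outside genes of highest correlation, genes of the other lists past 1.5-fold (not all are printed), and Ptprc, Alb, Apoa1, Ccl5 and Hba-a1. Other genes named were picked after their values were seen. Alternatives tried were no upper limit on detected genes, a mitochondrial limit of 10%, TMM factors, other sums and means, a prior of 5 UMIs, a minimum of 1000 UMIs or none, no thinning, thinning to 1000 UMIs, a threshold 2 times higher, Mki67 or Top2a alone, and gates 2 times higher. The code was tested on simulated data. Python 3.11.15 with numpy 2.4.6, scipy 1.17.1, pandas 2.3.3 and matplotlib 3.10.9, and R 4.3.3 with edgeR 4.0.16 (TMM) were used. Promoter sequences came from RefSeq, GRCm38.p6.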

Additional observations from a re-analysis of the deposited data

Results flagged for a closer look

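In some classes the level of the 50 genes differed between libraries in the direction opposite to that over all kept cells; whether a class differed from the whole was not tested. For treated over young WT this held for CD4 T cells with no drawn Foxp3 UMI, with a log2 ratio of -0.88. For miR-146a-/- over WT it held for CD4 T cells with no drawn Foxp3 UMI (0.46), gamma-delta T cells (0.43), classical monocytes (1.03), patrolling monocytes (0.27) and plasmacytoid dendritic cells (0.40, but -1.07 without the upper limit on detected genes). Gamma-delta T cells held few cycling cells, 3 of 97 in WT and 1 of 67 in miR-146a-/-, and their share difference was -1.60 points (-7.34 to 5.20). For DKO over miR-146a-/- it held for T cells of no narrower class (-0.040), classical monocytes (-0.10), cDC2 (-0.12, but 0.071 without that limit) and cells in no gate (-0.65).

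Cells above 6000 detected genes, which the comparisons left out, carried a high level of the 50 genes, with 8974 CPM in young WT, 5254 in treated WT, 6023 in miR-146a-/- and 6618 in DKO. They numbered 143, 427, 208 and 136, of which 64.3%, 39.6%, 42.8% and 52.9% reached the threshold for cycling cells, and 422 cycling cells in all lay there beside the 1651 that were kept. How many of these held more than 1 cell was not tested.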

How the results depend on the processing

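The share differences of treated over young WT and of miR-146a-/- over WT kept their direction under all alternatives. Their level differences did so too, except within cycling cells alone, where both turned (values below). The level difference of DKO over miR-146a-/- did not keep its direction. For each setting below the log2 level ratios stand in the order treated over young WT, miR-146a-/- over WT, DKO over miR-146a-/-, and wherever a value changed the cause was not tested. Without the upper limit on detected genes they were 0.36, -0.41 and -0.050, the treated WT share was 4.65 points higher, and 3 of the 50 genes rose. With TMM factors they were 0.45, -0.41 and 0.13. Without Stmn1, Pcna, Dut and Slbp they were 0.45, -0.45 and 0.081. As a mean over cells they were 0.59, -0.38 and -0.055. With a threshold 2 times higher the shares differed by 2.55 and -2.13 points in the first comparisons, and with Mki67 or Top2a alone by 5.87 and -5.09. With cells thinned to 1000 UMIs the share differences were -2.15 points for miR-146a-/- over WT and -0.66 for DKO over miR-146a-/-.

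Some alternatives were chosen after seeing the data. Without cells in 2 or more lineage gates the level ratios were 0.56, -0.50 and 0.056, with 33 genes higher for treated over young WT (8.59% of all genes) and 19 lower for miR-146a-/- over WT (6.16%) at 1.5-fold. In cells with under 10 thinned UMIs of the 50 genes the level ratios were 0.24, -0.33 and -0.10. Within cycling cells alone they were -0.087, 0.14 and -0.015. Another draw of UMIs moved no share beyond its interval.

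Within classes, a sign was counted as turned only where the main interval left out 0. Without the upper limit on detected genes 5 of 50 pairs turned. These were cells in 2 or more lineages for treated over young WT (-0.0070) and plasmacytoid dendritic cells for miR-146a-/- over WT (-1.07). For DKO over miR-146a-/- they were CD8 T cells with no drawn Pdcd1 UMI (-0.00024), cDC2 (0.071) and granulocyte precursors (-0.81). A further 29 pairs moved out of their main interval, and 16 stayed inside it. With gates 2 times higher, 41 of the 50 pairs kept 50 cells or more in both libraries and have a value. The sign turned in 2, CD4 T cells with no drawn Foxp3 UMI (-0.088) and plasmacytoid dendritic cells (-0.74) for DKO over miR-146a-/-. A further 26 moved out of their main interval, and 13 stayed inside it. With these gates 0 classes were lower in treated than in young WT, and 2 were higher in miR-146a-/- than in WT. No paired analysis was possible because each group was a single library of different mice. Depth limits the shares: cells under 2000 UMIs were left out, and small classes give wide intervals.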

Other observations

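Genes of the cell cycle outside the 50 were read from 5 further lists. All 34 other replication genes and all 46 other mitosis genes were at least 2-fold higher in cycling cells, with median ratios of 7.67 and 39.5. Of 9 G1 genes (cyclins, CDKs, Cdc25a, Skp2 and Myc) 4 were, of 7 CDK inhibitors 4, and of 15 genes of the RB and E2F families and their partners (Foxm1, Mybl2 and Lin54 included) 10, where 7.25% of the 14923 genes with at least 100 UMIs were. In treated over young WT, 13 of 46 other mitosis genes rose at 1.5-fold, beside 8.85% of all genes tested, namely Espl1 (log2 ratio 0.87), Kif4 (0.75), Cit (0.74), Ncaph (0.71), Ncapg (0.68), Cks1b (0.67), Kif15 (0.67), Spc24 (0.64), Sgo2a (0.62), Ect2 (0.60), Sgo1 (0.60), Spc25 (0.60) and Ttk (0.59). Among the other replication genes 4 of 34 rose, with Orc1 (0.82), Mcm8 (0.73) and Gins1 (0.62) among them. E2f7, a repressive E2F gene, rose as well (0.73), as 1 of the 15 genes of the RB and E2F list. In miR-146a-/- over WT, where 5.95% of all genes tested fell, Orc1 (-1.11), Mcm8 (-0.69), Pole (-0.60) and Mcm10 (-0.60) fell, 4 of 34, as did 7 of 46 mitosis genes, Cdc25c (-0.73), Kif4 (-0.68), Ect2 (-0.67), Esco2 (-0.66), Ncapg2 (-0.62), Sgo2a (-0.61) and Knl1 (-0.60).

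Of the CDK inhibitors 4 of 7 rose at 1.5-fold in treated over young WT and the other 3 had lower values, down to -0.55, none past 1.5-fold. Of the 9 G1 genes 1 rose, near the 8.85% of all genes tested. Cdkn1a, which encodes p21, stood at 31.8 CPM in young WT, 83.1 in treated WT, 49.7 in miR-146a-/- and 59.9 in DKO cells. It rose in treated over young WT (log2 ratio 1.39) and fell in miR-146a-/- over WT (-0.74). There it was 1 of 7 CDK inhibitors to fall, beside 5.95% of all genes tested. Cdkn2a, the gene of p16 and p19ARF, stood at 2.78, 9.24, 10.3 and 23.3 CPM and rose in treated over young WT (1.73) and in DKO over miR-146a-/- (1.18), as did Cdkn2b (1.67 and 0.95). Cdkn2b was low throughout, at 0.69, 2.21, 1.88 and 3.64 CPM. In DKO over miR-146a-/- these were 2 of 7 CDK inhibitors, beside 3.09% of all genes tested. Cdkn2c also rose in treated over young WT (0.72). Cdk6, a G1 kinase, stood at 40.4, 89.6, 83.5 and 81.1 CPM, higher in the 3 treated libraries than in young WT (1.15 for treated WT). Myc, a growth factor-induced transcription factor, stood at 75.5, 77.6, 46.0 and 45.5 CPM and fell in miR-146a-/- over WT (-0.75). It was 1 of the 9 G1 genes to fall there, beside 5.95% of all genes tested.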
